A study of Mus musculus and Rattus norvegicus with 26 samples.

Results

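Neurexins and neuroligins were examined in lists of cytoplasmic intron-sequence retaining transcripts (CIRTs), that is, of stretches of intron that were read in RNA from dendrites or from single cells. The members are the 5 genes Nrxn2, Nrxn3, Nlgn1, Nlgn2 and Nlgn3, and every contig with 1 of these symbols was taken, where a contig is a stretch of intron covered by reads that lie no more than 500 nt apart. They held 108 of the 112345 contigs in the 6 lists, and 4 of the 5 genes were among the 13695 symbols listed. Other genes of both families were not analysed here. By list, the members had 17 of 26445 contigs in mouse dendrites, 23 of 12931 in mouse somas, 31 of 8459 in rat dendrites, 31 of 6103 in rat somas, 4 of 42338 in brown adipose tissue (BAT) cells and 2 of 16069 in cardiomyocytes.

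Neurexins are adhesion proteins of the presynaptic membrane, and neuroligins are their partners on the postsynaptic side. Together they bridge the synaptic cleft and link it to scaffold proteins inside either cell. Neurexin genes are very long, use alternative promoters and are extensively spliced, and Nlgn1 is found mainly at excitatory synapses while Nlgn2 is found mainly at inhibitory ones. Nlgn3 is a neuroligin of both kinds of synapse.

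The dendrites (3 mouse and 2 rat batches by the sample labels) and the single somas (3 of each species) came from hippocampal neurons of embryonic day 18 C57BL/6 mice and Sprague-Dawley rats (an alignment table of the study gives a later day for the rats), kept in primary culture and cut or picked mechanically. The BAT cells (6 libraries) came from the interscapular fat of CD-1 mice at embryonic day 17.5 and were recognised by their shape, and the cardiomyocytes (9 libraries) were flow sorted from ventricles of a transgenic C57BL/6 embryo at day 14.5 that carried the Fucci cell cycle reporter. Somas, BAT cells and cardiomyocytes contain the nucleus, dendrites do not, and all RNA went through 3 rounds of aRNA amplification, which starts from a poly(T) primer. The authors pooled the libraries of a condition into 1 list, so that no value per library, no replicate error and no test between conditions could be given. The intervals below are 95% intervals that cover counting error only, and PCR reads without molecular identifiers are not independent molecules.

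The lists carried between 1007530 (rat dendrites) and 17858440 (BAT cells) intronic reads. A level is given as reads per 1000000 intronic reads of its list (RPM), and it is a share of a list, so that it does not measure the amount of RNA in a cell. Of 11 neuron markers, 7 were listed in mouse dendrites, 9 in mouse somas, 2 in rat dendrites, 4 in rat somas, 6 in BAT cells and 2 in cardiomyocytes, with summed levels of 414, 5757, 307, 1813, 375 and 383 RPM. Map2 and Syn1, which mark neurons, were in no list. BAT cells had contigs in 7 of 9 brown fat markers (4296 RPM) and cardiomyocytes in 8 of 10 cardiomyocyte markers (36980 RPM). These markers were not limited to their own cells, since 7 of 10 cardiomyocyte markers were also listed in BAT cells (3544 RPM) and 7 of 10 in mouse dendrites (1249 RPM), and 4 of 9 brown fat markers in mouse dendrites (322 RPM) beside 2 of 9 in mouse somas (2.16 RPM). Libraries were not strand specific, and therefore RNA from the opposite strand cannot be told apart from intron retained in the sense RNA.

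Example contigs of the members are shown first. Reads are counted per intron, so no result can be assigned to a single contig of an intron with several. Mouse sequences were read from NCBIM37 (mm9) at the positions in the lists, 5′ to 3′ on the strand of the gene, and intron numbers are those of the lists. These numbers follow the transcript of each species, so equal numbers in mouse and rat need not be the same intron. The first 2 regions overlapped between lists, and capitals mark the bases common to them. In Nrxn3 the region chr12:91477689-91477988 (plus strand) was shared by mouse dendrites, mouse somas and cardiomyocytes. In Nlgn1 the region chr3:25815818-25816117 (minus strand) was shared by mouse dendrites and BAT cells:

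Nrxn3 intron 20, dendrites, somas and cardiomyocytes: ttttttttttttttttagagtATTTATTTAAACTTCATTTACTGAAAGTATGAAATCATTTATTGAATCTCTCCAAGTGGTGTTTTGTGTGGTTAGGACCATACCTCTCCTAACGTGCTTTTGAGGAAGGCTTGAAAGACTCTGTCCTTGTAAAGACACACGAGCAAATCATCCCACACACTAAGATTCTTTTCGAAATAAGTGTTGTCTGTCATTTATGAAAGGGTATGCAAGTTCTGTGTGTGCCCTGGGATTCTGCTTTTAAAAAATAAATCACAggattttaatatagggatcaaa
Nlgn1 intron 4, dendrites and BAT cells: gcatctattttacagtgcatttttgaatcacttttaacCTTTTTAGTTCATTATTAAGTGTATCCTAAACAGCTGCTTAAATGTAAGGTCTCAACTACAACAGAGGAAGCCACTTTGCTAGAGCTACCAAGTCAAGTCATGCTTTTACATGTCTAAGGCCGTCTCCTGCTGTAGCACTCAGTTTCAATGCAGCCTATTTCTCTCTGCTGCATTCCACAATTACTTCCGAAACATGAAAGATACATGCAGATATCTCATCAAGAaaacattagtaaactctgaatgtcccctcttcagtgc

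The last pair of single contigs stands for the members where they had little company. The Nrxn3 contig of BAT cells, chr12:90755585-90755789 (plus strand), is the only one of this gene in that list, and its capitals mark a run of T. The middle of the Nlgn1 contig of dendrites in intron 6, chr3:25336555-25336854 (minus strand), has no long run of A or T and every 50-base window of the contig is found once in the genome:

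Nrxn3 intron 14, BAT cells: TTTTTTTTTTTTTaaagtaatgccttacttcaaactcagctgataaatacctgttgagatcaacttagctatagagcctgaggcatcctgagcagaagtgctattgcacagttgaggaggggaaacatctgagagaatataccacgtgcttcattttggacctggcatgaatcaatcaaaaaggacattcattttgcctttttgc
Nlgn1 intron 6, mouse dendrites: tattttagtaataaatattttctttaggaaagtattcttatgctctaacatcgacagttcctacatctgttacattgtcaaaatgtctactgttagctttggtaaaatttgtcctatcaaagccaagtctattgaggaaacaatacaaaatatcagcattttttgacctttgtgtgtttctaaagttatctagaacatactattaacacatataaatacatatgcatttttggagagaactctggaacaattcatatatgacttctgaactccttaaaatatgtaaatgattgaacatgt

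Of the 5 members, 3 were listed in mouse dendrites, 2 in mouse somas, 3 in BAT cells and 1 in cardiomyocytes, while the lists held 69%, 47.3%, 82% and 49.8% of the 12467 genes found in any mouse list. In rat, 4 of the 5 were listed in dendrites and 3 in somas, beside 78.5% and 59.4% of the 5712 genes in either rat list. These shares leave out genes that no list holds, and Nlgn2 and Nlgn3 are in none of the mouse lists. Nlgn3 had no contig in any of the 6 lists, neither under its symbol nor, in mouse, under its RefSeq accession. A count of 0 was taken to allow up to 3 reads per list, a one-sided limit, which is between 0.168 RPM in BAT cells and 2.98 RPM in rat dendrites. The upper ends of the two-sided intervals of 0 reads are 0.207 and 3.66 RPM.

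Nrxn3 was the member with the most reads in the neuronal lists. It had 1192 reads (386 RPM, interval 365 to 409) in mouse dendrites, 5182 reads (2793 RPM) in mouse somas, 2907 reads (2885 RPM) in rat dendrites and 13183 reads (6294 RPM) in rat somas. In BAT cells it had 56 reads (3.14 RPM, interval 2.37 to 4.07) and in cardiomyocytes 42 reads (3.44 RPM, interval 2.48 to 4.65). The 4 neuronal lists stood above both non-neuronal lists, and the intervals of BAT cells and cardiomyocytes overlapped. Rat dendrites and mouse somas, which were next to each other in the order, also had overlapping intervals (2781 to 2992 and 2717 to 2870 RPM).

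Nrxn2 was highest in rat somas, with 918 reads (438 RPM). It had 166 reads (165 RPM) in rat dendrites, 84 reads (45.3 RPM) in mouse somas and 45 reads (14.6 RPM) in mouse dendrites. In contrast to Nrxn3, it had 2705 reads (151 RPM, interval 146 to 157) in BAT cells, which overlapped the interval of rat dendrites (141 to 192 RPM), and no contig in cardiomyocytes (at most 0.246 RPM). All 2705 reads came from a single contig in intron 8, an intron of 7353 nt.

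Nlgn1 was highest in rat dendrites, with 1675 reads (1662 RPM), and had 673 reads (321 RPM) in rat somas. It had 335 reads (109 RPM) in mouse dendrites and 419 reads (23.5 RPM) in BAT cells. Mouse somas and cardiomyocytes had no contig, which allows up to 1.62 and 0.246 RPM at 3 reads. Nlgn2 had a single contig of 565 nt in intron 3 in rat dendrites, with 43 reads (42.7 RPM), and none in the other 5 lists.

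**Figure D1:**
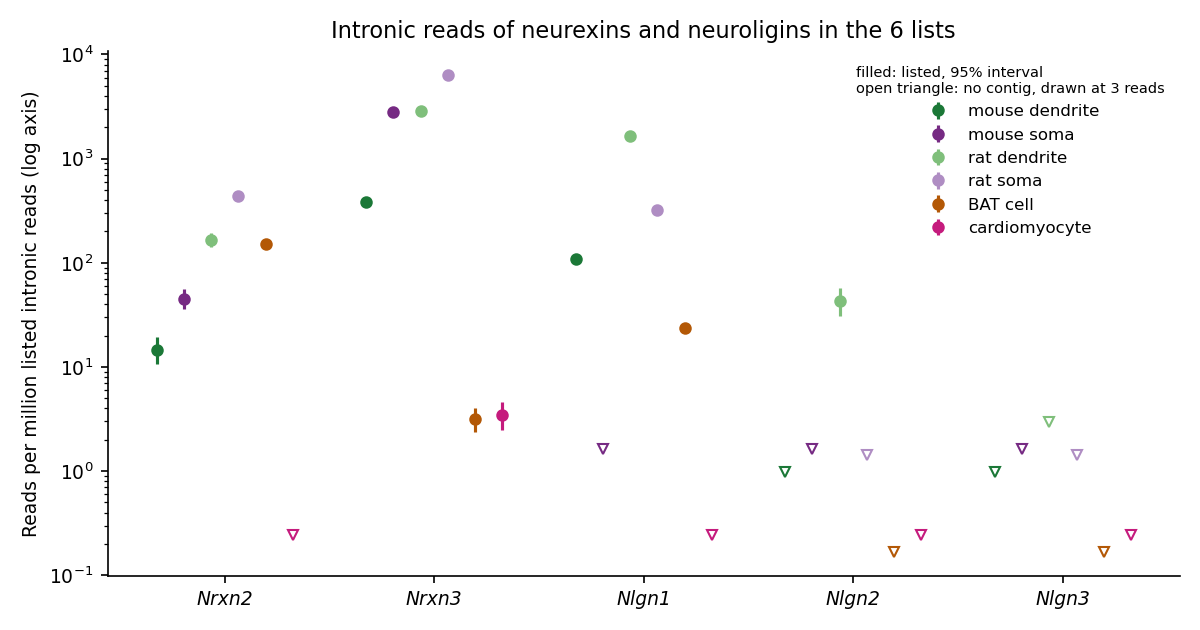
RPM (log axis) of the 5 members in the 6 lists, with filled points for listed genes and 95% counting intervals, and open triangles at 3 reads for genes without a contig. Nrxn3 lies between 386 and 6294 RPM in the 4 neuronal lists and near 3 RPM in BAT cells and cardiomyocytes, and Nlgn3 has only triangles.

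Reads were also divided by the listed contig length of a gene, per 1000 nt (reads per kb). This is a read density within covered stretches, and it does not correct for the length of genes or introns. In mouse dendrites the order was Nrxn3 (339 reads per kb), Nlgn1 (228) and Nrxn2 (54.9), beside a median of 107 over all genes of the list. In mouse somas Nrxn3 had 528 reads per kb and Nrxn2 had 52.9, beside a median of 82.3. In rat dendrites Nlgn1 led with 581 reads per kb, before Nrxn3 (384), Nrxn2 (141) and Nlgn2 (76.1), and the median was 66.7. In rat somas Nrxn3 (1009) and Nrxn2 (848) stood above Nlgn1 (166), with a median of 127. By this density Nlgn1 and the neurexins changed places between dendrites and somas of rat. By RPM, Nrxn3 stayed above Nlgn1 in rat dendrites (2885 and 1662 RPM) and in rat somas (6294 and 321 RPM). Both Nrxn2 contigs in rat somas were over 400 nt, the limit the study set for whole cells. In BAT cells Nrxn2 reached 3327 reads per kb, which ranked 472 of 10220 genes, while Nlgn1 (316) and Nrxn3 (273) were nearer to the median of 175, and in cardiomyocytes Nrxn3 (88.6) was below the median of 277.

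Dendrites and somas were compared by the share of its list that a gene took. Such a share does not show where the intronic reads came from. In both species Nrxn2 and Nrxn3 took a larger share of the soma list and Nlgn1 a larger share of the dendrite list. Of the other neuroligins, Nlgn2 was listed in rat dendrites only and Nlgn3 in no list. Nrxn3 was 7.23-fold higher in mouse somas than in mouse dendrites (interval 6.79 to 7.71) and 2.18-fold higher in rat somas than in rat dendrites (interval 2.10 to 2.27). Nrxn2 was 3.11-fold higher in mouse somas (interval 2.14 to 4.56) and 2.66-fold higher in rat somas (interval 2.25 to 3.16). For Nlgn1 the direction was opposite, since it was at least 67.1-fold higher in mouse dendrites with the somas set to 3 reads (lower end of the exact interval 54.3), and 5.17-fold higher in rat dendrites (interval 4.73 to 5.67). Nlgn2 was at least 29.8-fold higher in rat dendrites against 3 reads (lower end 23.2).

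A gene was called past 4-fold when it had 32 reads or more in 1 of the lists compared. In mouse, 1 of the 3 members compared (Nlgn1) was called higher in dendrites, where 53.2% of 6675 genes were, and 1 (Nrxn3) was called higher in somas, where 22.8% were. By the intron with the most reads alone, Nrxn2 was also past 4-fold higher in mouse somas (log2 value of -2.10 for dendrites over somas). In rat, 2 of the 4 members compared (Nlgn1 and Nlgn2) were called higher in dendrites, where 48.1% of 3319 genes were, and none was called higher in somas, where 34.2% were. A share of dendrite calls of this size is near that of all genes, and nothing particular to the neuroligins follows from it. Among 1849 genes compared in both species, 53.4% had the same direction in mouse and rat, which Nrxn2, Nrxn3 and Nlgn1 each did. Of all these genes, 20.9% were on the soma side in both, as Nrxn2 and Nrxn3 were, and 32.5% on the dendrite side in both, as Nlgn1 was.

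Of the scalings tried (list totals without the 10 introns with the most reads, the median shared gene, and sequenced reads), none turned the direction of a member. When the median gene found in both lists was set equal, the log2 values of dendrites over somas moved by 0.27 in mouse and by 0.73 in rat, and relative to that median gene they were -3.12 for Nrxn3 in mouse, -1.86 for Nrxn3 in rat, 1.64 for Nlgn1 in rat, which is under 4-fold, and -2.15 for Nrxn2 in rat, which is past 4-fold. Contig length did change a direction: with contigs of at most 400 nt only in the somas, the limit the study set for whole cells, the log2 value of Nrxn2 changed from -1.63 to 1.69 in mouse, where 4 soma reads were left, and from -1.41 to at least 5.09 in rat, where no soma read was left and 3 were set. With the same limit Nrxn3 in rat went from -1.13 to -2.88, past 4-fold higher in somas, and Nlgn1 in rat from 2.37 to 0.62. No soma read of either gene left the rat list, so both shifts come from the smaller total of that list. With the limit in all lists the rat values were -1.52 for Nrxn3 and 1.98 for Nlgn1, both under 4-fold. In mouse the limit in somas moved Nrxn3 from -2.85 to -3.90 and Nlgn1 from at least 6.07 to at least 5.01. Astrocyte markers moved with the lists as well, with 4 of 5 listed in mouse dendrites (966 RPM) and 3 of 5 in mouse somas (142 RPM), and 1 of 5 in rat dendrites (68.5 RPM) and 2 of 5 in rat somas (120 RPM). Microglia markers were higher in dendrites of both species, with 2 of 4 listed in mouse dendrites (275 RPM) and 1 of 4 in mouse somas (37.7 RPM), and 1 of 4 in rat dendrites (696 RPM) and none in rat somas. Itgam was the marker listed in each of these 3 lists, and Aif1 and Cx3cr1 were at 0 in all lists. Of 4 oligodendrocyte markers, 2 were listed in mouse dendrites (1.94 RPM) and 1 in mouse somas (1.08 RPM), while Mog alone gave 138 RPM in rat dendrites and 27.7 RPM in rat somas. The part of these markers in the results was not tested.

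Between neurons and the non-neuronal cells, Nrxn3 differed in the same direction in both comparisons. It was 891-fold higher in mouse somas than in BAT cells (interval 685 to 1181) and 811-fold higher than in cardiomyocytes (interval 599 to 1127). Nrxn2 was 3.35-fold higher in BAT cells than in mouse somas (interval 2.69 to 4.21) and at least 184-fold higher in mouse somas than in cardiomyocytes (lower end 146). Nlgn1 was at least 14.5-fold higher in BAT cells than in mouse somas (lower end 11.7). Nrxn3 alone was called higher in somas than in BAT cells, where 21.8% of 7942 genes were, and Nlgn1 alone was called higher in BAT cells, where 43.9% were. Nrxn2 and Nrxn3 were both called higher in somas than in cardiomyocytes, where 36.6% of 5638 genes were, and no member was called higher in cardiomyocytes, where 37.7% were. With contigs of at most 400 nt in these whole-cell lists Nrxn3 was the only member still compared, since Nlgn1 and Nrxn2 had no contig left in BAT cells and Nrxn2 had 4 reads left in mouse somas, so that the calls of Nlgn1 against BAT cells and of Nrxn2 against cardiomyocytes were lost. With the median gene set equal, Nrxn2 was past 4-fold higher in BAT cells than in mouse somas (log2 value of -2.12 for somas over BAT cells). All these ratios share the mouse soma list. Age and handling, and for BAT cells also the mouse strain, differ along with cell type, and these cannot be told apart here.

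Because Nlgn1 was absent from the mouse soma list, mouse dendrites were also set against BAT cells, a contrast added after the data were seen. Nrxn3 was 123-fold higher in dendrites (interval 94.2 to 164) and Nlgn1 4.63-fold higher (interval 3.99 to 5.35), while Nrxn2 was 10.4-fold higher in BAT cells (interval 7.74 to 14.3). The background was 34.1% of 8783 genes higher in dendrites and 33.7% higher in BAT cells, or 29.1% and 43.2% with the median gene set equal. With that scaling Nlgn1 had a log2 value of 1.30 for dendrites over BAT cells, and by its intron with the most reads 1.80, both under 4-fold. Nrxn3 went from 6.94 to 6.03 with that scaling and to 5.73 with contigs of at most 400 nt in BAT cells, still past 4-fold. With contigs of at most 400 nt in BAT cells Nrxn2 and Nlgn1 had no contig left there, and against 3 reads the log2 values of dendrites over BAT cells changed from -3.38 to at least 5.22 for Nrxn2 and from 2.21 to at least 8.12 for Nlgn1. With contigs of all lengths Nlgn1 in BAT cells lay above mouse somas and below mouse dendrites, and with the limit it was listed in neither BAT cells nor mouse somas.

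**Figure D2:**
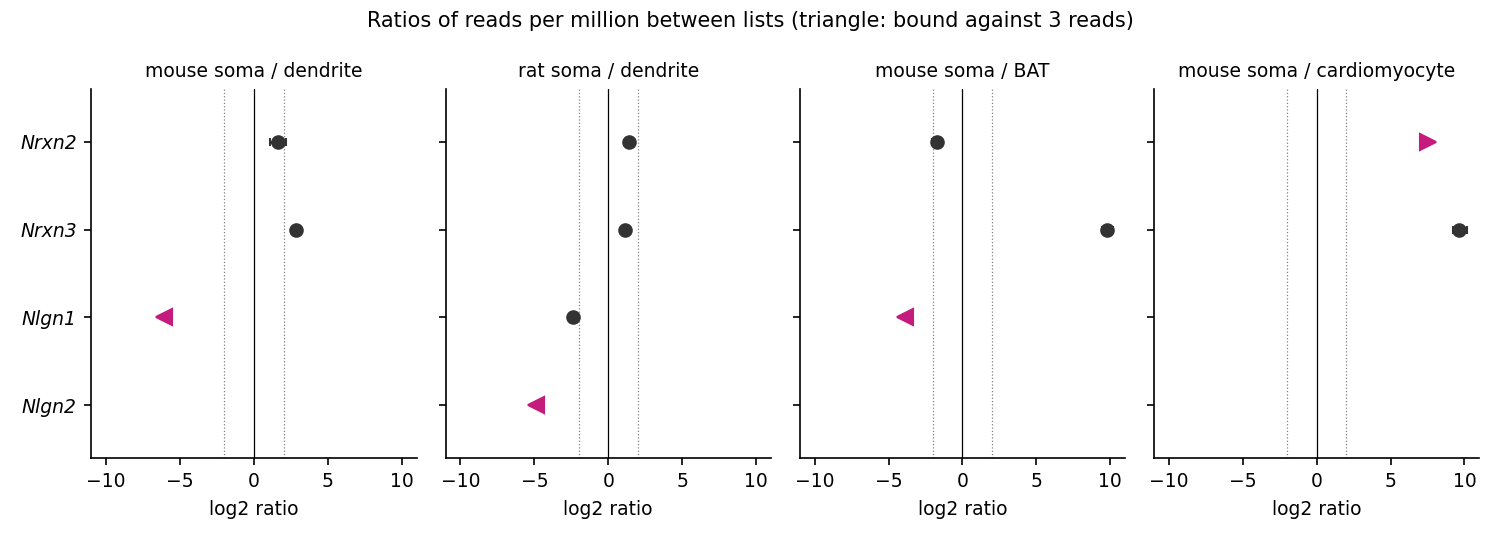
Log2 ratios of RPM for 4 members in 4 comparisons of lists, with 95% counting intervals. Positive values are higher in somas, triangles are bounds against 3 reads, and dotted lines mark 4-fold. Both neurexins lie right of 0 in the 2 dendrite comparisons, and left of 0 are Nlgn1 in both of them and Nlgn2 in rat, the only species in which it was listed.

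Within the genes, the reads came from few introns. Nrxn3 has a span of 1612056 nt (chr12:89961320-91573375, plus strand), with a longest annotated intron of 443332 nt. In mouse dendrites 975 of its 1192 reads were in intron 8, 128 in intron 20 and 85 in intron 9 of another transcript. In mouse somas the order was reversed, with 3181 reads in intron 20, 1911 in intron 8 and 55 in intron 5 of the other transcript. Intron 8 (87724 nt) had 5 contigs in each of these lists, and intron 20 (78753 nt) had 4 in dendrites and 11 in somas. In cardiomyocytes 40 of the 42 reads were in intron 20 as well, and in BAT cells all 56 reads were in intron 14.

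In rat, intron 21 of Nrxn3 held the most reads in both lists, 1298 in dendrites and 8021 in somas. Intron 15 had 749 and 2494 reads. Intron 4 had more reads in dendrites (654) than in somas (237), and intron 16 had 181 reads in dendrites and no contig in somas. Introns 5, 9 and 18, with at most 8 reads, also had more in dendrites. Intron 10 had 7 reads in dendrites and 2424 in somas. The longest contig of the members, 3592 nt, was in intron 21 in rat somas.

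Nrxn2 is shorter, with a span of 125439 nt (chr19:6418731-6544169, plus strand), and its reads moved between introns. Mouse dendrites had 31 reads in intron 10 and 14 in intron 8, whereas mouse somas had 80 reads in intron 8 and 4 in intron 2. Rat dendrites had 110 reads in intron 6, 44 in intron 2 and 12 in intron 7, and rat somas had 906 reads in intron 21 and 12 in intron 10. None of the 3 and 2 introns of Nrxn2 was therefore listed in both rat lists, beside 24.9% of all introns of the dendrite list and 34.8% of all introns of the soma list. For Nrxn3, 5 introns were in both, of 8 in rat dendrites and 6 in rat somas. For Nrxn2 in rat somas, intron 21 alone gave 98.7% of the reads.

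Nlgn1 spans 701924 nt in mouse (chr3:25330733-26032656, minus strand), and its longest intron, 472564 nt, had no contig in any mouse list. The mouse contigs lay in intron 4 of the list (7383 nt, 252 reads in dendrites and 419 in BAT cells) and in intron 6 (3222 nt, 83 reads in dendrites). In rat all reads of Nlgn1 were in intron 4, where 9 dendrite contigs were spread over 398085 nt and 7 soma contigs over 369592 nt. The contigs covered 0.724% and 1.10% of these stretches. The genes without mouse contigs are compact, with spans of 14663 nt for Nlgn2 (chr11:69636624-69651286, minus strand) and 30125 nt for Nlgn3 (chrX:98491178-98521302, plus strand) and longest introns of 5467 and 6325 nt. Among all mouse genes whose longest intron is 5000 to 20000 nt, 44.7% were listed in mouse dendrites, 28.8% in mouse somas, 51.6% in BAT cells and 29.9% in cardiomyocytes.

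Over the members, 8 of 53 annotated introns had a contig in mouse dendrites (15.1%, interval 7.85 to 27.1), beside 16.6% of all introns of the listed transcripts. The counts were 8 of 48 (16.7%, all introns 12.4%) in mouse somas, 3 of 46 (6.52%, all introns 22.9%) in BAT cells and 2 of 27 (7.41%, all introns 15.2%) in cardiomyocytes. None of the member introns over 100000 nt had a contig in the 4 mouse lists (0 of 8 in dendrites and 0 of 6 in each of the others), beside between 17.6% and 19.4% of all introns of that length. In the class from 20000 to 100000 nt, 2 of 8 had a contig in mouse dendrites and in mouse somas (all introns 36.2% and 28.4%).

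**Figure D3:**
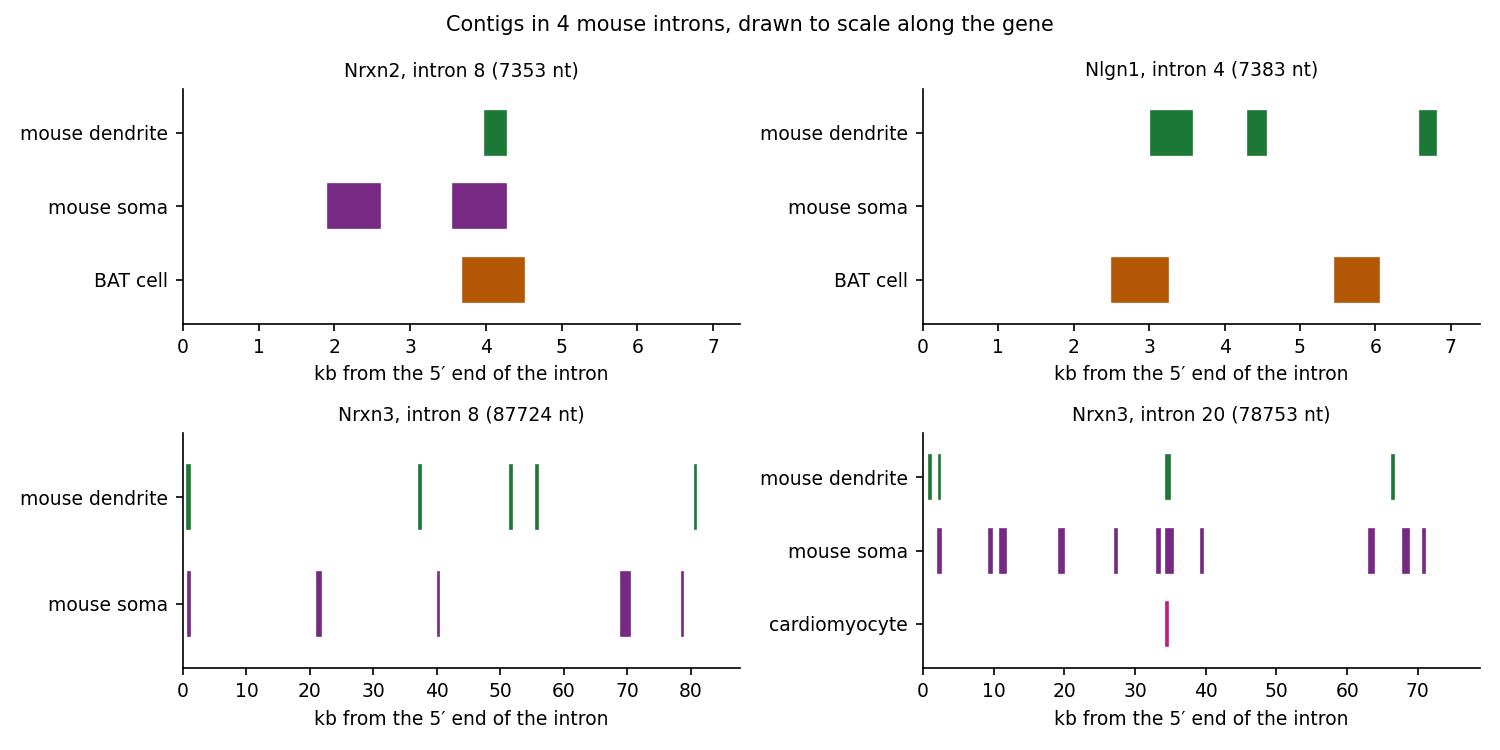
Contigs (boxes) in 4 mouse introns, in kb from the 5′ end of the intron, for the lists with a contig in them and for mouse somas. The Nrxn2 boxes of 3 lists stack near 4 kb, and the Nrxn3 boxes of dendrites, somas and cardiomyocytes stack near 34 kb of intron 20, while most other boxes of intron 8 and intron 20 do not overlap between lists.

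In mouse, 6 of 17 dendrite contigs of the members (35.3%) overlapped a contig of another mouse list by at least 1 base, beside 28.3% of all contigs of that list, and 5 of 23 soma contigs did (21.7%, all contigs 47.5%). Between dendrites and somas, 5 contigs overlapped, 29.4% of the dendrite contigs of the members (all contigs 11.9%) and 21.7% of their soma contigs (all contigs 24.2%). In rat 7 of 31 dendrite contigs (22.6%, all contigs 15.1%) and 7 of 31 soma contigs (22.6%, all contigs 20.9%) overlapped. Of the rat overlaps, 5 were in Nrxn3, 3 of them in intron 21, and 2 were in Nlgn1. Of 4 BAT contigs 2 overlapped a neuronal contig, in Nrxn2 and Nlgn1, and 1 of 2 cardiomyocyte contigs did, in Nrxn3. Of all contigs, 24.7% in BAT cells and 46.2% in cardiomyocytes overlapped a contig of another mouse list.

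The overlap at the start of Nrxn3 intron 8 lies in an annotated exon. The dendrite and soma contigs there touch the last exon of Nrxn3-004, a transcript that the annotation itself classes as a retained intron. No other mouse contig of the members touched an exon of its gene in this annotation.

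In the neuronal lists several introns of Nrxn3, and intron 4 of Nlgn1 in rat, had many contigs. In 2 of 8 member introns in mouse dendrites and 2 of 8 in mouse somas there were 4 or more contigs, beside 3.29% and 1.55% of all introns listed. In rat the counts were 4 of 13 in dendrites and 4 of 9 in somas, beside 0.660% and 1.11%. None of 3 member introns in BAT cells (all introns 3.78%) and none of 2 in cardiomyocytes (all introns 1.51%) did. All member introns with 4 or more contigs are mouse Nrxn3 introns 8 and 20, rat Nrxn3 introns 4, 15 and 21 or rat Nlgn1 intron 4. The mouse ones are 87724 and 78753 nt long. The shares over all introns were not matched for intron length or reads, and the part of these in the counts was not tested. Median contig length was 272 nt for the members and 256 nt for all contigs in mouse dendrites, and 413 and 277 nt in mouse somas. It was 329 and 278 nt in rat dendrites and 429 and 303 nt in rat somas. Contigs over 400 nt made up 13 of 23 member contigs in mouse somas (56.5%, all contigs 32.7%) and 17 of 31 in rat somas (54.8%, all contigs 37.9%). In BAT cells 3 of 4 member contigs were over 400 nt (all contigs 33.9%), and in cardiomyocytes neither of the 2 was (all contigs 36.2%), with lengths of 201 and 273 nt beside a median of 282 nt.

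**Figure D4:**
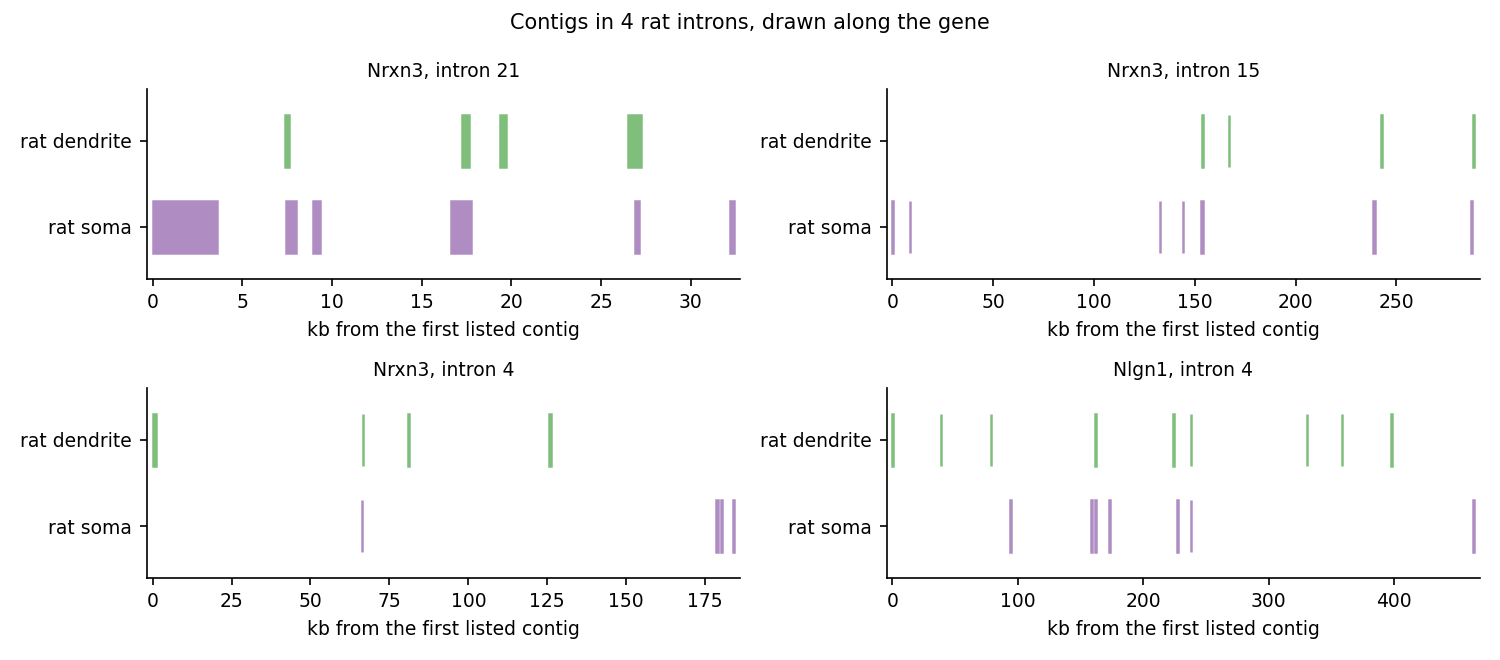
Contigs (boxes) in 4 rat introns, in kb from the first listed contig along the gene, in dendrites and somas. Box edges are drawn with a fixed line so that short contigs stay visible. The 9 dendrite and 7 soma contigs of Nlgn1 intron 4 are spread along the intron and meet at 2 places, and the 3592 nt contig of Nrxn3 intron 21 stands out in somas.

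The sequence around the contigs was searched for runs that a poly(T) primer can meet, written AAAAAAAAAA (10 or more) downstream on the strand of the gene within 300 nt. Such a run followed 3 of 17 member contigs in mouse dendrites (17.6%, all contigs 8.11%) and 5 of 23 in mouse somas (21.7%, all contigs 18.6%), and none of 4 in BAT cells (all contigs 7.36%) and none of 2 in cardiomyocytes (all contigs 9.53%). All 8 runs began within 26 nt of the end of the contig, and 2 of the runs were the same in dendrites and somas. Over all contigs with such a run, 61.1% in mouse dendrites and 77.2% in mouse somas had it within 30 nt. For Nrxn2 intron 10 in dendrites (chr19:6488585-6488715) and Nrxn3 intron 8 in somas (chr12:90539209-90539344), both on the plus strand, the approach to the run is shown with the run in capitals:

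Nrxn2 intron 10, mouse dendrites: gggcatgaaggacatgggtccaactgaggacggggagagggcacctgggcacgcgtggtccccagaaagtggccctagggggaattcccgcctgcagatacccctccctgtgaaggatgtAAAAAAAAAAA
Nrxn3 intron 8, mouse somas: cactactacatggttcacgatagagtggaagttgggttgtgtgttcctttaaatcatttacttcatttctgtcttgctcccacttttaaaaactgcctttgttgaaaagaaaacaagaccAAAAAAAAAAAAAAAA

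The mirror image, TTTTTTTTTT (10 or more) upstream within 300 nt, was found at 5 of 17 member contigs in mouse dendrites (29.4%, all contigs 12.6%), 1 of 23 in mouse somas (4.35%, all contigs 11.4%), 1 of 4 in BAT cells (all contigs 8.95%) and 1 of 2 in cardiomyocytes (all contigs 7.61%). The contigs of the 3 lists that share the Nrxn3 intron 20 region all began inside or within 5 nt of the same run of T, part of which opens the sequence printed above. The Nrxn3 contig of BAT cells began inside such a run. Since strand is unknown, a run of T on the strand of the gene is a run of A on the other strand.

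The study counted only reads that map to 1 place. Of the 46 mouse contigs of the members, 39 consisted entirely of 50-base windows found once in the genome, and 97.9% of all 17774 windows in them were. The lowest share was 59.8%, in the Nrxn2 intron 8 contig of mouse dendrites, whose most frequent window has 6126 copies in the genome. The contigs of mouse somas and BAT cells at the same place had 83.6% and 85.9%. The 3 Nrxn2 contigs that overlap between lists are therefore the ones in which reads are hardest to place, and the part of this in the 2705 reads of BAT cells was not tested.

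Genes whose proteins bind neurexins or neuroligins, or belong to the scaffolds attached to them, were counted by role, from a list of 47 genes called partners here. Of 18 extracellular ligands of neurexins, 6 were listed in mouse dendrites, 4 in mouse somas, 1 in rat dendrites, 1 in rat somas, 8 in BAT cells and 4 in cardiomyocytes, where the lists held 69%, 47.3%, 78.5%, 59.4%, 82% and 49.8% of the genes found in any list of the species. Of 15 scaffold and partner proteins of the postsynaptic side, 12, 12, 7, 9, 12 and 9 were listed in the same order, and of 12 partners of the presynaptic side 8, 6, 5, 6, 8 and 4. Mdga1 and Mdga2, which bind neuroligins, were both listed in mouse dendrites, mouse somas and BAT cells, and Mdga2 alone in both rat lists. The largest read counts in mouse dendrites were those of Magi2 (8261 reads), Dlg2 (3685) and Dlgap2 (1627), all proteins of the postsynaptic scaffold. Dlg2 (5152), Magi2 (2052) and Cask (1114), a kinase-like scaffold that binds the neurexin tail, led in mouse somas. Cask (1058), Lin7a (638), which is bound to Cask, and Dlg1 (457), another scaffold, led in rat dendrites, and Magi1 (10722), Shank1 (7060), both postsynaptic scaffolds, and Gphn (2297), the scaffold gephyrin of inhibitory synapses, led in rat somas. In BAT cells the leaders were Dlg1 (56868), Dlg2 (10226) and Dlgap2 (6872), and in cardiomyocytes Magi3 (59087), Epb4.1 (9451), a protein of the membrane skeleton, and Dlg2 (6757).

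Between dendrites and somas the partners were split. In mouse, 6 of 25 partners compared were called higher in dendrites (all genes 53.2%) and 5 higher in somas (all genes 22.8%), with a median log2 value of 0.21 beside 2.66 over all genes. The 12 postsynaptic partners compared gave 0 and 3 calls (Shank2, Shank3 and Dlgap1 in somas), and the 6 presynaptic ones gave 3 and 1. In rat, 4 of 15 partners compared were called higher in dendrites (all genes 48.1%) and 7 higher in somas (all genes 34.2%), with a median of -1.70 beside 1.55 over all genes. The medians of both species include genes absent from 1 list and set to 3 reads there. Over the genes found in both lists the median was 0.27 in mouse and 0.73 in rat, and no such median was taken for the partners. Of the postsynaptic partners, 1 (Dlg1) was called higher in rat dendrites and 5 higher in rat somas, among them Shank1 and Gphn. Of the presynaptic ones, Cask, Lin7a and Lin7b were called higher in rat dendrites, and Apba1 and Lin7c in rat somas. In these counts Shank3, a scaffold that lies below neuroligins, had 82 reads in mouse dendrites and 836 in mouse somas, and no contig in rat dendrites and 884 reads in rat somas. In mouse somas against BAT cells 12 of 27 partners were called higher in somas (all genes 21.8%) and 9 higher in BAT cells (all genes 43.9%). Against cardiomyocytes 14 of 20 were called higher in somas (all genes 36.6%) and 5 higher in cardiomyocytes (all genes 37.7%). In mouse dendrites against BAT cells 11 of 26 were called higher in dendrites (all genes 34.1%) and 3 higher in BAT cells (all genes 33.7%).

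**Figure D5:**
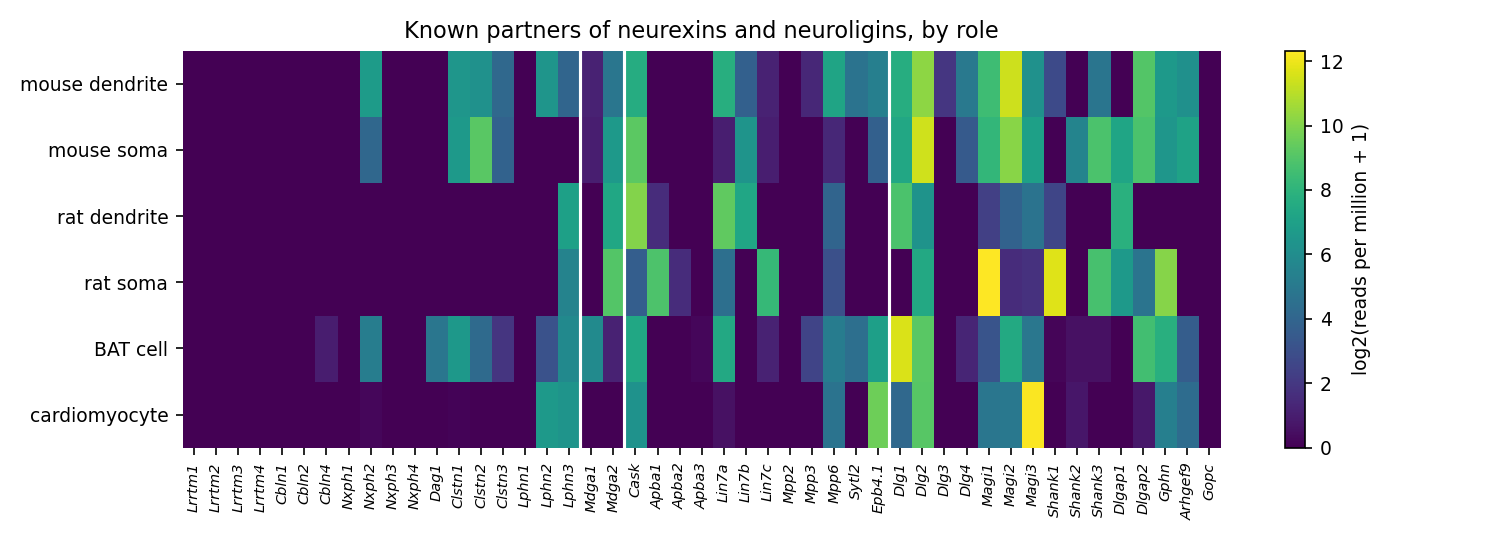
Log2(RPM + 1) (colour) of 47 partners of neurexins and neuroligins, with 1 column per gene and 1 row per list. White lines part ligands of neurexins, binders of neuroligins, presynaptic and postsynaptic partners. The ligand block on the left is mostly at 0, with 1 of 18 listed in each rat list, and the postsynaptic block on the right holds the brightest cells.

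Genes with the most similar levels over the 6 lists were found by the Euclidean distance of log2(RPM + 1) among 10619 genes, where the points share their 6 lists. For Nrxn3 the nearest 2 were Wnk2 (distance 3.94) and Ncam2 (5.02), a neural adhesion molecule, beside a median distance of 19.8 over all genes. For Nrxn2 they were Efr3a (1.91), Cabin1 (2.29) and Tbcel (2.39), and for Nlgn1 Rab10 (2.14), a small GTPase, Apaf1 (2.76), the core protein of the apoptosome, and Wtap (2.91), a subunit of the RNA methylation complex, with medians of 13.2 and 14.4. All 3 genes near Nlgn1 shared its lack of contigs in mouse somas and cardiomyocytes, but they were chosen by these same values. These neighbours are a description of 6 pooled values per gene.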

How the data were processed

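The series holds amplified RNA from dendrites and somas of cultured mouse and rat hippocampal neurons, single BAT cells and single cardiomyocytes (26 libraries). The authors trimmed and aligned paired reads of 50 nt to mm9 and rn4 with RUM, kept intronic reads with a unique Bowtie alignment, left out introns holding a predicted gene or a poly(A) site, joined reads into contigs and pooled the libraries of a condition. The deposited counts are raw reads per intron, repeated on each of its contigs, and were taken once per transcript and intron and summed per symbol. The labels name more BAT cells and cardiomyocytes than the study describes.

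Starts were shifted to count from 1. Counts were divided by the total of their list. Ratios carry exact conditional binomial intervals, levels exact Poisson intervals and shares Wilson intervals (95%), and a list without reads was set to 3 reads. Introns, exons and sequences came from GENCODE M1 on NCBIM37, to which 98.9% of the mouse RefSeq transcripts were matched. Rat sequences, protein sequences and rat introns without contigs were not analysed here. Each 50-base window was counted on both strands of the genome. Python 3.11.15, pandas 2.3.3, numpy 2.4.6, scipy 1.17.1, pysam 0.24.0 and matplotlib 3.10.9 were used. The fold calls were run on simulated counts with counting error only and planted changes larger than 4-fold. That run checks the code and does not measure amplification or cell-to-cell variance.

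No p-value is given, since each condition is 1 pooled list. The members, partner and marker lists were chosen with earlier results of these data known. Named were all members, their 3 introns with the most reads per list, the 3 partners with the most reads per list and the 3 genes nearest to each member over the lists (1 of these genes and 1 sequence are not reported here); mouse sequences were the densest single-contig introns, regions shared by lists and examples before runs of A. Rat Nrxn3 introns with fewer reads than the first 3 were named in addition. Partner genes named among the fold calls, runs of T, windows found once and the reads per kb were chosen after values were seen. Alternatives concerned contig length, scaling, read minimums, overlap and run definitions.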

Additional observations from a re-analysis of the deposited data

How the results depend on the processing

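Among the counts, shares and medians over the members, 10 changed with a setting and the others stayed within 1.5 times or within their interval. With contigs of at most 400 nt in the whole-cell lists or in all lists, members listed in BAT cells fell from 3 to 1, members past 4-fold went from 2 to 1 in mouse somas against BAT cells and from 2 to 1 against cardiomyocytes, and, with the limit in all lists, from 2 to 0 in rat dendrites against somas. The share of member introns with a contig in BAT cells was 2.17% with this limit. Scaling by sequenced reads left 1 member past 4-fold in rat, and a minimum of 32 reads gave 8.33% of member introns in mouse somas. The limit in whole-cell lists reversed Nrxn2, with log2 values of 1.69 for mouse dendrites over somas, at least 5.09 for rat dendrites over somas and at least 5.22 for mouse dendrites over BAT cells (both against 3 reads), because its long contigs in somas and BAT cells leave the lists. The limit keeps the whole count of an intron when any of its contigs passes. With it Nlgn1 in rat was 0.62 and Nrxn3 in rat was -2.88. These shifts come from the smaller total of the soma list, since no read of either gene left. The contrast of mouse dendrites with BAT cells and the 30 nt limit on runs were chosen after seeing the data. Scaling by the median shared gene shifted somas over BAT cells by 0.38, somas over cardiomyocytes by 0.50 and dendrites over BAT cells by 0.91 (log2), and turned no member.

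No paired analysis was possible because the lists pool the libraries of a condition, and leaving out each library was not run for the same reason. Read counts belong to introns, with no count per contig, and counts of Nlgn2 and of Nrxn2 in mouse neurons are small.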
